A study of Mus musculus with 6 samples.

Results

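Aak1 and the endocytic adaptor genes described here are 10 genes: the adaptor kinases Aak1, Bmp2k and Gak, the AP-2 subunits Ap2a1, Ap2a2, Ap2b1 and Ap2m1, and the AP-5 subunits Ap5b1, Ap5z1 and Ap5m1. They were chosen by symbol from the 55401 genes of the count table, each matched 1 Ensembl identifier, and all 10 passed the filter on low counts, which left 15959 genes. Aak1 and Ap5b1 were included because they vary strongly between libraries, so their values are given as a description, with no test. The cells were bone marrow-derived macrophages of C57BL/6 mice, which are cultured from marrow precursors. The cells of 3 libraries (siPiezo1) had received an siRNA against Piezo1, a mechanically gated cation channel, and those of 3 (siNC) a negative-control siRNA. Stretch was applied for 4 h in every library, and unstretched cells were not analysed here. The study asked how Piezo1 promotes macrophage proliferation under mechanical stimuli, and the comparison is siPiezo1 against siNC under stretch.

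AP-2 is the adaptor complex of clathrin-mediated endocytosis: it binds the lipid PIP2, sorting motifs in the tails of cargo receptors, and clathrin, and so links cargo to the coat at the plasma membrane. AAK1 phosphorylates the mu subunit of AP-2, which favours its binding to cargo, BMP2K (also called BIKE) is its closest relative, and GAK also helps Hsc70 to strip clathrin from vesicles. AP-5 acts without clathrin on late endosomes and lysosomes, with the partners SPG11 and SPG15 (the product of Zfyve26). Macrophages use these routes to take up receptors and to renew lysosomes.

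Promoter windows of 4 genes are shown because Aak1 and Ap5b1 shared a pattern across the libraries and Ap5m1 and Ap5z1, of the same complex as Ap5b1, did not. Each window holds 250 bases before and 50 after an annotated start, written 5′ to 3′ on the gene's strand (RefSeq, GRCm38.p6, all on the plus strand), and all 10 genes matched this table. Capitals mark every match, on either strand, to CCGGAAG (the core of ETS factor motifs), CACGTG (the E-box), TGACGT (the core of the cyclic AMP response element) and CCAAT (the CCAAT box). No matches overlap in the windows shown. The windows are chr6:86849255-86849554 for Aak1, chr19:5567774-5568073 for Ap5b1, chr14:49066299-49066598 for Ap5m1 and chr5:142463681-142463980 for Ap5z1. For Aak1, which has 2 such windows, the one nearest the first coding transcript of GENCODE M21 was taken.
Aak1 promoter: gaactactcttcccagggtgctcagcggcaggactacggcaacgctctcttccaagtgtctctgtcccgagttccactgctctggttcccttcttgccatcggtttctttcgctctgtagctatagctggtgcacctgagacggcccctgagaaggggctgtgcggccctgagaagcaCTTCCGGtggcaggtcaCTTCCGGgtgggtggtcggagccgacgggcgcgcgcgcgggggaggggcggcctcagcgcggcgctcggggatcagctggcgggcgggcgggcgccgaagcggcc
Ap5b1 promoter: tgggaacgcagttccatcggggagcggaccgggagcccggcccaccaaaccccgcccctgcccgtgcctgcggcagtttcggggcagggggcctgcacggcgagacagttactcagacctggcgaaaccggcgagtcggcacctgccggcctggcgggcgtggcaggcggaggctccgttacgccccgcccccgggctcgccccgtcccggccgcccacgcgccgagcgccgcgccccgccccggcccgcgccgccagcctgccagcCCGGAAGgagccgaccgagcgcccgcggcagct
Ap5m1 promoter: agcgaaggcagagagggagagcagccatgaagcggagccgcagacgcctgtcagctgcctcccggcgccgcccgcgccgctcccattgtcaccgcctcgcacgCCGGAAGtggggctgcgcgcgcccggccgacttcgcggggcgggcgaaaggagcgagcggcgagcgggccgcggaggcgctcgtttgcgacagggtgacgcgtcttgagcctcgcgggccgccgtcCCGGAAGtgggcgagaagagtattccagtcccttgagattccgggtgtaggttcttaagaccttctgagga
Ap5z1 promoter: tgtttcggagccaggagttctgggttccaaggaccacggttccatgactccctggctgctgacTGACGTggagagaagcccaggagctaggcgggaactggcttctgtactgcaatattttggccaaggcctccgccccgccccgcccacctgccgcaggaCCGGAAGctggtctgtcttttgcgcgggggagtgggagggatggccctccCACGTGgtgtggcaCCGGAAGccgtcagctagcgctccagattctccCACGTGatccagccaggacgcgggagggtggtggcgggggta

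CCGGAAG occurred in 5 of the 10 windows, against 8.86% of all 32851 windows in the table. It was found 2 times in the window of Aak1, 1 time in that of Ap5b1, 2 times in that of Ap5m1, 2 times in that of Ap5z1 and 1 time in that of Ap2b1. The genes with a match therefore include both the ones that varied most and ones that did not. CACGTG was found 2 times in Ap5z1 and 1 time in Ap2m1 (7.15% of all windows), TGACGT in 4 windows (Gak, Ap2b1, Ap2m1 and Ap5z1; 7.51% of all windows) and CCAAT in 3 (Ap2a1, Ap2a2 and Ap2b1; 37.4% of all windows). The share of G and C ran from 51.3% in Ap2b1 to 83.3% in Bmp2k and was above the median of all windows (52.7%) in 9 of the 10. Of all windows above that median, 14.5% held CCGGAAG. The matches are a description of these letters and were not tied to any measured binding.

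The 6 libraries held 61086684 to 75052745 estimated counts. Low values stood at multiples of 3.73 to 3.81 counts, so the totals stood for about 16.2 to 19.9 M fragments. Piezo1, the target of the siRNA, stood at 111, 109 and 113 CPM (counts scaled to a common library total with TMM factors) in siPiezo1 and at 180, 285 and 189 CPM in siNC. One library, siNC 2, stood apart from the other 5, with correlations of log2 CPM across genes of 0.938 to 0.951 against 0.958 to 0.969 for pairs without it, so edgeR's fold changes, calls and list medians are given with and without it. Of the markers, 9 macrophage genes summed to 33839 to 36488 CPM in siPiezo1 and 26767 to 34899 CPM in siNC, the lowest value being that of siNC 2. The 11 neutrophil and precursor markers summed to 599 to 624 CPM in siPiezo1 and to 631, 3236 and 678 CPM in siNC 1, 2 and 3, although Ly6g and Retnlg stayed under 1 CPM throughout. The 5 osteoclast markers summed to 47.0 to 58.7 CPM in siPiezo1 and 36.0 to 86.6 CPM in siNC, with Calcr and Oscar under 1 CPM, and the 6 fibroblast markers to at most 17.1 CPM. Dendritic, T or NK, B and erythroid cell markers summed to at most 1.47, 0.0598, 3.54 and 10.1 CPM, and Cd3e, Cd3d, Cd3g, Trac, Ncr1, Siglech and Pax5 were at 0 in all 6 libraries.

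Aak1 had 101, 104 and 95.0 CPM in siPiezo1 1, 2 and 3, against 20.8, 117 and 28.6 CPM in siNC 1, 2 and 3. The siPiezo1 libraries were close together, while siNC 2 lay above all of them and siNC 1 and 3 far below, so the groups overlapped. The mean was 99.8 ± 4.41 CPM in siPiezo1 and 55.4 ± 53.4 CPM in siNC (SD, n = 3 each), so the SD within siNC was about as large as its mean. The highest siNC library stood 5.62 times above the lowest, against 1.09 times within siPiezo1. The log2 fold change of Aak1 in edgeR's fit was 0.85 ± 0.62 (SE). Without siNC 2 it was 2.01 ± 0.14 (SE), a fold of 4.04, so the size of the difference rests on that library. Since Aak1 was chosen for its spread, neither SE is to be read as a test. The lowest and highest Aak1 values stood for about 335 and 2337 fragments, and 100-base stretches of its transcripts were shared with no other gene of GENCODE M21. The values are totals per gene: counts per exon or transcript were not analysed here, so it is not known whether the low values in siNC 1 and 3 hold along the whole gene. Whether these low values come from the assembly of transcripts during processing was not tested. Because these are bulk samples, fewer cells of a type and less RNA per cell cannot be told apart here or for any gene below.

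The other adaptor kinases did not share this pattern. Bmp2k had 83.3, 90.7 and 84.4 CPM in siPiezo1, against 89.1, 106 and 84.7 CPM in siNC. Gak had 215, 199 and 185 CPM in siPiezo1, against 174, 196 and 196 CPM in siNC. For both genes the groups overlapped, and no library stood more than 1.28 times above another for Bmp2k or 1.24 times for Gak. Their log2 fold changes were -0.12 ± 0.11 and 0.08 ± 0.09 (SE), and the Benjamini-Hochberg adjusted p was 0.991 for each (edgeR, quasi-likelihood). Without siNC 2 they were -0.01 ± 0.07 and 0.11 ± 0.08 (SE). Per length (CPM per kb of merged exons), the level of Gak was highest of the kinases in every library, Bmp2k came next and Aak1 was lowest. Gak averaged 31.0 CPM per kb in siPiezo1 and 29.3 in siNC, Bmp2k 10.2 CPM per kb in siPiezo1 and 11.0 in siNC, and Aak1 4.65 CPM per kb in siPiezo1 and 2.58 in siNC. Aak1 thus made up 9.8%, 10.4% and 10.3% of the summed kinase level per length in siPiezo1, against 2.52%, 11.2% and 3.19% in siNC 1, 2 and 3. The merged exons of Aak1 span 21453 bases, so its level per length depends on how much of that length is used.

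**Figure D1:**
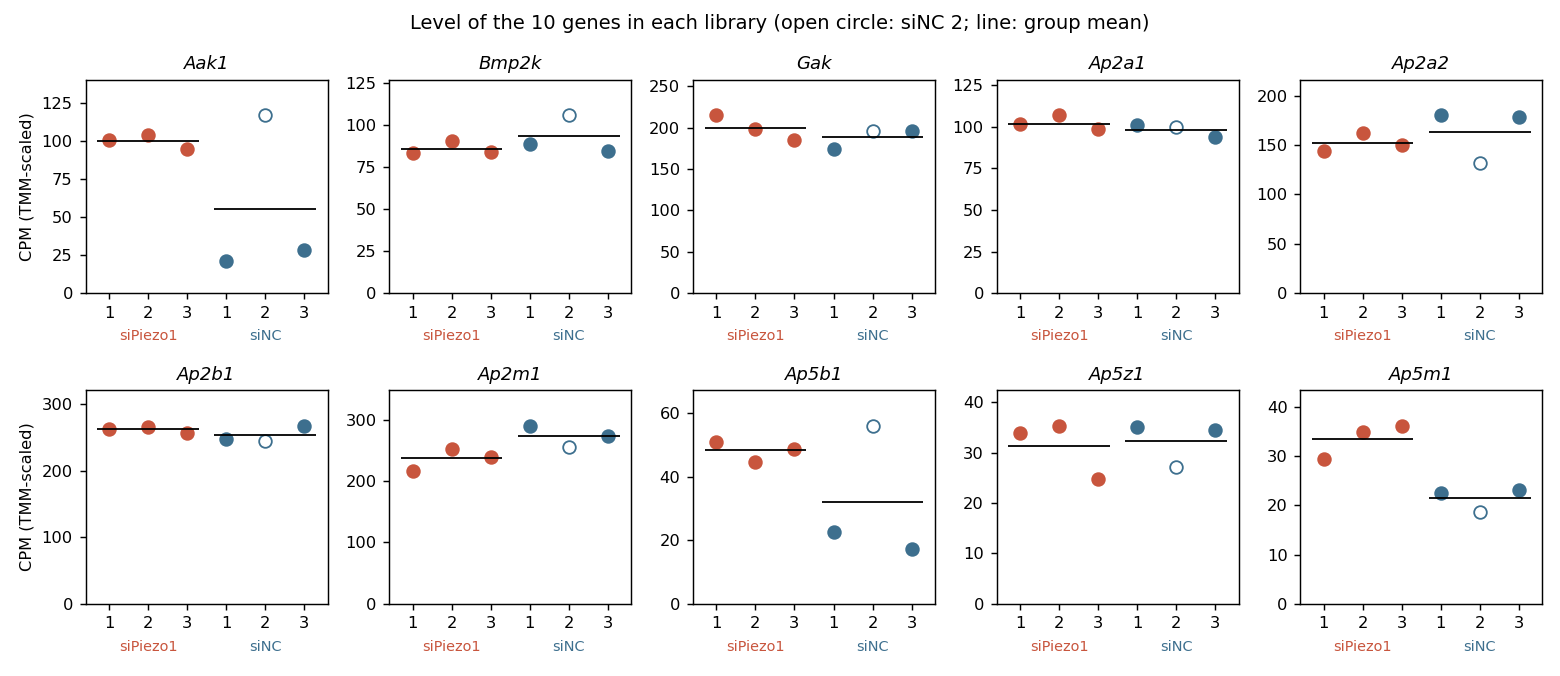
CPM of each of the 10 genes (y axes, from 0) in the 3 siPiezo1 libraries (red, left) and the 3 siNC libraries (blue, right), with group means as lines and siNC 2 as an open circle. For Aak1 and Ap5b1, siNC 2 lies with the siPiezo1 libraries and siNC 1 and 3 lie far below, while Ap5m1 is higher and Ap2m1 lower in each siPiezo1 library.

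Of the AP-2 subunits, Ap2a1 and Ap2b1 differed least between the libraries. Ap2a1, one of the alternative alpha subunits, had 102, 107 and 98.7 CPM in siPiezo1, against 101, 100 and 93.8 CPM in siNC. Ap2b1, the beta subunit that binds clathrin, had 263, 265 and 256 CPM in siPiezo1, against 248, 245 and 267 CPM in siNC. The groups overlapped for both, and their log2 fold changes were 0.06 ± 0.07 and 0.05 ± 0.07 (SE), or 0.07 ± 0.07 and 0.02 ± 0.06 (SE) without siNC 2. The SD of log2 CPM over the 6 libraries was ranked among genes with at least 5 CPM on average. That of Ap2b1 (0.05) exceeded that of only 2.82% of genes and that of Ap2a1 (0.06) only 4.53%. The spread of the other AP-2 members was ordinary, at 38.5% for Ap2m1 (0.15) and 50.3% for Ap2a2 (0.18). The shares were 98.7% for Aak1 (1.08) and 96.4% for Ap5b1 (0.70), the genes that were chosen for their spread. Ap2a2, the other alpha subunit, had 144, 162 and 150 CPM in siPiezo1, against 180, 132 and 178 CPM in siNC. Here siNC 2 was the lowest of all and siNC 1 and 3 the highest, the reverse of the order seen for Aak1. Its log2 fold change was -0.10 ± 0.13 (SE) with all libraries and -0.24 ± 0.07 (SE) without siNC 2.

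Ap2m1, whose product is the mu subunit that AAK1 phosphorylates, had 216, 253 and 240 CPM in siPiezo1, against 290, 255 and 274 CPM in siNC. Each siPiezo1 library lay below each siNC library, though siPiezo1 2 and siNC 2 were almost level, and 5.65% of all genes tested did not overlap in this direction. The log2 fold change was -0.21 ± 0.09 (SE; edgeR, Benjamini-Hochberg adjusted p = 0.978), and -0.26 ± 0.08 without siNC 2 (SE; edgeR, adjusted p = 0.157). A two-sided exact permutation test on the CPM values gave p = 0.1, the smallest value that 3 against 3 libraries allow. The counts of Ap2m1 are uncertain, since the processed pseudogene Gm13509 shares 20.4% of its 100-base stretches and held 51.6, 61.5 and 59.1 CPM in siPiezo1 and 65.4, 56.4 and 64.5 CPM in siNC. Summed, both loci stood at 268, 315 and 299 CPM in siPiezo1, against 356, 311 and 339 CPM in siNC, so that the groups overlapped. Exons of Fuz on the opposite strand cover 16.7% of those of Ap2a1, and exons of Paqr3 14.0% of those of Bmp2k. Whether counting used the strand is not given in the sources used here, but Fuz averaged 5.37 CPM in siPiezo1 and 5.82 in siNC, and Paqr3 2.13 CPM in siPiezo1 and 2.62 in siNC.

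Per length, the level of Ap2m1 was the highest of the 10 genes, at 57.4 CPM per kb in siPiezo1 and 66.3 in siNC. Ap2b1 stood at 29.9 CPM per kb in siPiezo1 and 28.9 in siNC, Ap2a2 at 26.8 in siPiezo1 and 28.8 in siNC, and Ap2a1 at 23.8 in siPiezo1 and 22.8 in siNC. In siNC the values of Ap2b1 and Ap2a2 overlapped, and their order was not fixed. Ap2a1 made up 48.2%, 46.4% and 46.5% of the summed level per length of both alpha genes in siPiezo1, against 42.4%, 50.0% and 40.9% in siNC 1, 2 and 3. Both alpha genes were therefore present at similar levels in each library. Ap2s1, the small sigma subunit and the gene that completes the complex, was described beside them for its identity: it stood at 111, 124 and 108 CPM in siPiezo1 and 101, 139 and 124 CPM in siNC. The summed CPM of all 5 AP-2 genes was 837, 912 and 853 in siPiezo1, against 919, 871 and 937 in siNC, and the groups overlapped.

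**Figure D2:**
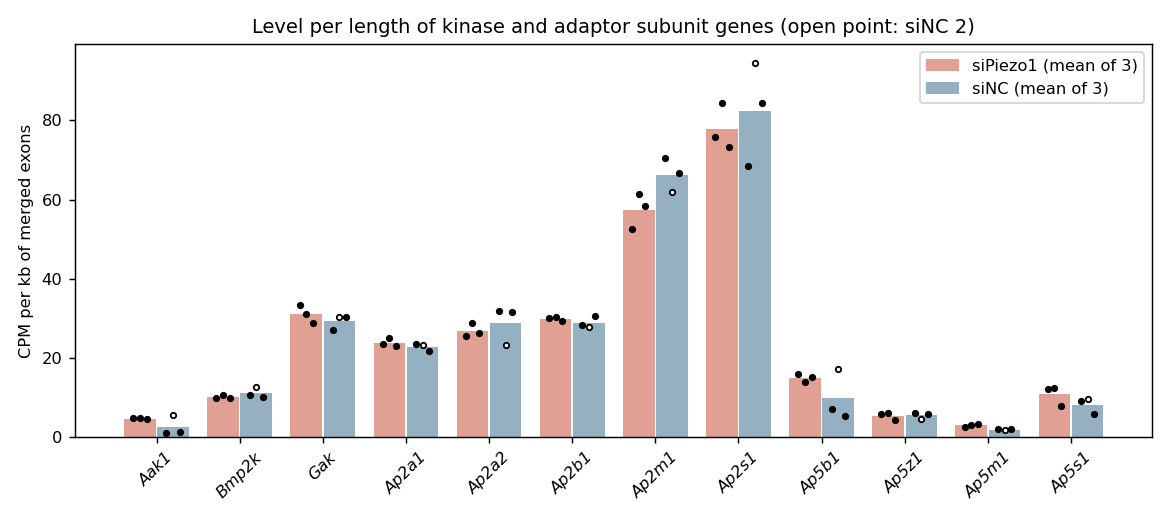
Mean level per length (CPM per kb of merged exons, y axis from 0) of the kinase, AP-2 and AP-5 genes in siPiezo1 (red, left bar) and siNC (blue, right bar), with points for the 3 libraries of each group and an open point for siNC 2. Ap2s1 and Ap5s1 complete the complexes. AP-2 genes stand above AP-5 genes, and Aak1 and Ap5m1 have the lowest means of the 10 genes on this scale.

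Among the AP-5 genes, Ap5b1, the beta subunit, had 51.1, 44.8 and 48.8 CPM in siPiezo1 1, 2 and 3, against 22.5, 56.0 and 17.4 CPM in siNC 1, 2 and 3. As for Aak1, siNC 2 lay above the siPiezo1 libraries and siNC 1 and 3 well below them. The mean was 48.3 ± 3.19 CPM in siPiezo1 and 32.0 ± 21.0 CPM in siNC (SD, n = 3 each). The log2 fold change was 0.59 ± 0.42 (SE), and 1.27 ± 0.13 (SE) without siNC 2, a fold of 2.41. As for Aak1, neither SE is to be read as a test. The highest siNC library stood 3.21 times above the lowest, against 1.14 times within siPiezo1. Its transcripts shared no 100-base stretch with another gene.

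Ap5m1, the mu subunit, followed the siRNA groups rather than this pattern. It had 29.4, 34.9 and 36.1 CPM in siPiezo1, against 22.4, 18.7 and 23.2 CPM in siNC. Each siPiezo1 library lay above each siNC library, and siNC 2 lay below the other siNC libraries; 6.24% of all genes tested did not overlap in this direction. The mean was 33.5 ± 3.62 CPM in siPiezo1 and 21.4 ± 2.41 CPM in siNC (SD, n = 3 each), a log2 fold change of 0.64 ± 0.13 (SE), or 1.56-fold. By edgeR this did not pass the threshold (Benjamini-Hochberg adjusted p = 0.744, unadjusted p = 0.00209), and an exact two-sided permutation test gave p = 0.1, the smallest value possible. DESeq2 called it (adjusted p = 0.0170, Benjamini-Hochberg), and over all alternatives, from edgeR, DESeq2 and limma-voom, the adjusted p ranged from that value to 1. Without siNC 2 the log2 fold change was 0.55 ± 0.12 (SE; edgeR, Benjamini-Hochberg adjusted p = 0.0746). The smallest and largest Ap5m1 values stood for about 361 and 696 fragments. Exons of Exoc5 on the opposite strand cover 4.63% of those of Ap5m1, and Exoc5 averaged 82.1 CPM in siPiezo1 and 83.7 CPM in siNC.

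Ap5z1, the zeta subunit, had 33.9, 35.3 and 24.8 CPM in siPiezo1, against 35.1, 27.2 and 34.5 CPM in siNC. One library in each group, siPiezo1 3 and siNC 2, was lower than the rest, and the groups overlapped. Its log2 fold change was -0.04 ± 0.17 (SE), and -0.15 ± 0.15 (SE) without siNC 2. Ap5s1, the sigma subunit, named here because it completes the complex, had 20.3, 20.5 and 12.9 CPM in siPiezo1 and 15.1, 16.0 and 9.69 CPM in siNC. Per length, Ap5b1 was the highest AP-5 gene among the members, at 14.9 CPM per kb in siPiezo1 and 9.88 in siNC, Ap5z1 stood at 5.29 in siPiezo1 and 5.45 in siNC, and Ap5m1 at 2.94 in siPiezo1 and 1.88 in siNC. In siNC 3 the level per length of Ap5b1 was below that of Ap5z1 (5.39 against 5.83 CPM per kb). Ap5b1 made up 43.5%, 39.3% and 49.9% of the summed level per length of the 4 AP-5 genes in siPiezo1, against 29.0%, 52.2% and 28.2% in siNC 1, 2 and 3. In siNC 2 Ap5m1 and Ap5z1 were lower, and Ap5b1 higher, than in siNC 1 and 3.

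With all 6 libraries, edgeR's quasi-likelihood test called 0 of the 8 genes other than Aak1 and Ap5b1, and 1 of 15959 genes in all (0.00627%). It did not call Piezo1, the target of the siRNA, either (log2 fold change -0.97 ± 0.18 (SE), Benjamini-Hochberg adjusted p = 0.744). Without siNC 2 the edgeR test called Piezo1 lower (-0.73 ± 0.06 (SE), adjusted p = 0.00245). With all 6 libraries DESeq2 also called it (adjusted p = 0.000982), while limma-voom did not (adjusted p = 0.699). In edgeR's test on all 6 libraries, 1 of the 8 was higher (Ap5m1) and 0 lower with unadjusted p below 0.05, against 2.52% and 2.41% of all genes. DESeq2 called 1 of the 8 higher (0.288% of all genes), and limma-voom called 0 of the 8, with 0.00627% of all genes called. Without siNC 2 the edgeR test called 0 of the 8, against 0.664% of all genes higher and 0.451% lower, and with unadjusted p below 0.05 it had 1 higher (Ap5m1; 7.69% of all genes) and 2 lower (Ap2a2 and Ap2m1; 6.66% of all genes). The median log2 fold change of the 8 genes was 0.00 with all 6 libraries and 0.00 without siNC 2, and that of all tested genes -0.01 and 0.01.

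**Figure D3:**
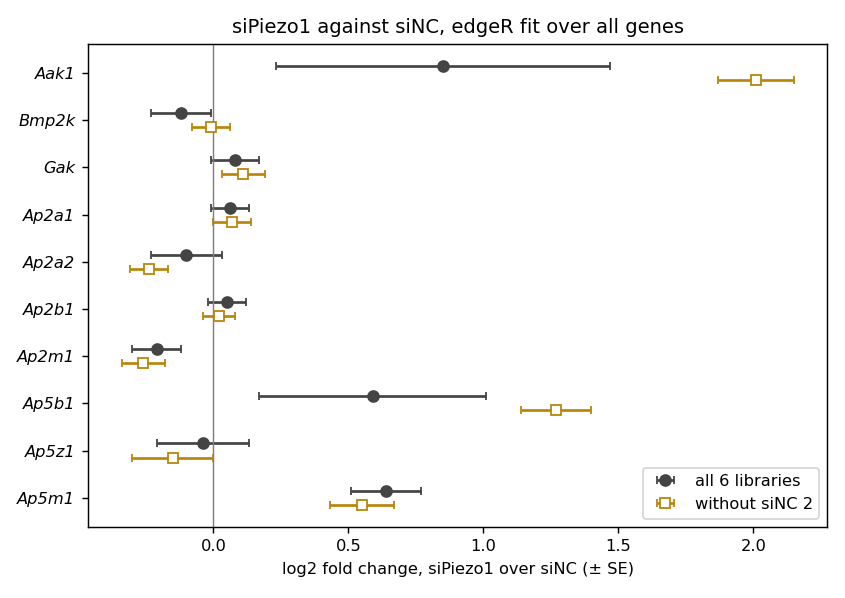
Log2 fold change, siPiezo1 over siNC, with its SE (x axis) for each gene (y axis), from edgeR's fit on all 6 libraries (filled) and without siNC 2 (open). Without siNC 2 the values of Aak1 and Ap5b1 are 2.01 and 1.27, against 0.85 and 0.59 with it, while Ap5m1 stays near 0.6. Aak1 and Ap5b1 were chosen for their spread, so their SEs are no test.

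Genes with the profile most like that of Aak1 and of Ap5b1 were looked for among 9702 other named genes with at least 5 CPM on average. The measure was the root mean square difference of log2(CPM + 0.5), centred on each gene's mean, over the 6 libraries. For Aak1 these were Pde10a, a cyclic nucleotide phosphodiesterase (0.42), the pseudogene Gapdh-ps15 (0.42) and Ap5b1 itself (0.43). Pde10a had 7.28, 6.90 and 10.3 CPM in siPiezo1, against 2.34, 14.1 and 4.08 CPM in siNC. For Ap5b1 they were closer: Prrg4 (0.14), Adh7, an alcohol dehydrogenase (0.17), and Slpi, a secreted inhibitor of leukocyte proteases (0.18). Slpi had 635, 576 and 762 CPM in siPiezo1, against 320, 889 and 316 CPM in siNC. Aak1 stood at place 313 among the genes most like Ap5b1, while Ap5b1 stood at place 3 for Aak1. The difference between both genes is the same 0.43 from either side. The measure depends on how far a gene varies, and the SD of log2 CPM was 1.08 for Aak1 and 0.70 for Ap5b1. Both genes were chosen for that spread, so these places are a description. Cell type markers moved with this order in part. The summed neutrophil and precursor markers, given above, were highest in siNC 2, where Aak1 and Ap5b1 were also highest, and differed little between siPiezo1, where both genes were high, and siNC 1 and 3, where they were low. Of the 9 macrophage markers, 6 (Adgre1, Cd68, Fcgr1, Mertk, C1qa and C1qb) ran in the reverse order of Aak1, lowest in siNC 2 and higher in siNC 1 and 3 than in every siPiezo1 library, while Csf1r, Lyz2 and Itgam did not. Of the 5 osteoclast markers, 2 (Ctsk and Acp5) had the order of Aak1, as had 2 of the 6 fibroblast markers (Dcn and Pdgfrb). Pdgfrb met this order only narrowly (3.32 CPM in siNC 2, 3.27 CPM in siPiezo1 1), as did Ctsk (25.5 CPM in siNC 1, 26.5 CPM in siPiezo1 2). Cd68 met the reverse order only narrowly (1016 CPM in siNC 1, 1011 CPM in siPiezo1 1). Csf1r missed the reverse order only narrowly (4447 CPM in siNC 1, 4463 CPM in siPiezo1 1). How many of all genes had either order was not counted, so these marker counts are a description only. The part of these markers in the differences was not tested.

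**Figure D4:**
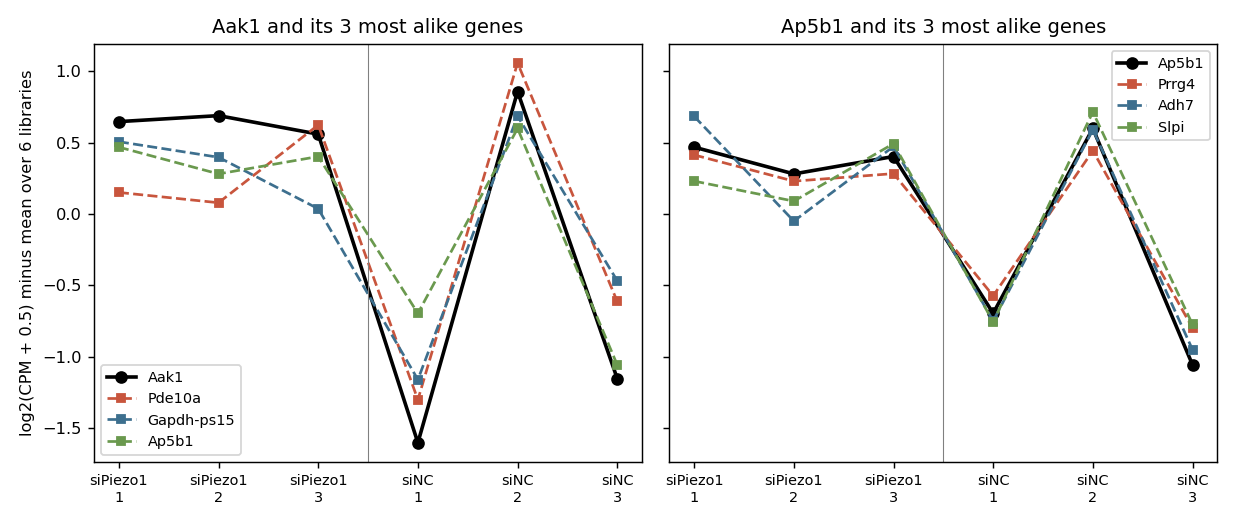
Profiles of Aak1 (left) and Ap5b1 (right), in black, with the 3 genes nearest to each (dashed): log2(CPM + 0.5) minus its mean over the 6 libraries (y axis) in the siPiezo1 and then the siNC libraries (x axis). All are low in siNC 1 and siNC 3, and the genes near Ap5b1 follow it more closely than those near Aak1.

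Other genes of adaptor and clathrin transport were taken from 8 lists with 78 genes, of which 72 were tested. The lists were chosen with earlier results of these data known. Their counts beside the shares of all genes are therefore a description, not a test of an excess. In edgeR's quasi-likelihood test 0 of them passed, and with unadjusted p below 0.05 there were 1 higher (Zfyve26) and 7 lower (Dab2, Hip1, Itsn1, Itsn2, Mrc1, Sh3gl1 and Tfrc), against 2.52% and 2.41% of all genes. DESeq2 called 4 lower (Dab2, Hip1, Mrc1 and Tfrc; 0.263% of all genes) and 0 higher, and limma-voom called 0. The groups did not overlap for 2 genes higher and 12 lower in siPiezo1, against 6.24% and 5.65% of all genes. Their median log2 fold change was -0.04, with 29 above 0 and 43 below, beside -0.01 for all tested genes, of which 7660 were above 0 and 8299 below. Without siNC 2 the edgeR test called 1 of them, Tfrc, lower (0.451% of all genes), and 5 were higher and 15 lower with unadjusted p below 0.05, against 7.69% and 6.66% of all genes. The median was then -0.07, with 24 above 0 and 48 below.

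Genes of the coat assembly and cargo adaptor list had a median log2 fold change of -0.15, with 17 of 22 tested members below 0. Without siNC 2 the median was -0.10, with 18 of 22 below 0. Dab2, a cargo adaptor that binds AP-2, had 63.9, 101 and 88.3 CPM in siPiezo1, against 148, 251 and 153 CPM in siNC. Hip1, whose product binds clathrin and AP-2, had 68.7, 87.1 and 72.2 CPM in siPiezo1, against 108, 110 and 102 CPM in siNC. In both genes each siPiezo1 library lay below each siNC library. Their log2 fold changes were -1.12 ± 0.26 and -0.49 ± 0.11 (SE), and the Benjamini-Hochberg adjusted p was 0.820 and 0.810 by edgeR, and 0.00903 and 0.0445 by DESeq2. Dab2 was highest in siNC 2. Leaving out siNC 2 gave log2 fold changes of -0.83 ± 0.21 for Dab2 and -0.47 ± 0.10 for Hip1 (SE; edgeR, Benjamini-Hochberg adjusted p = 0.177 and 0.0841).

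Among the partners of AP-2 and AP-5, Zfyve26 had 119, 111 and 119 CPM in siPiezo1, against 102, 103 and 101 CPM in siNC. This partner of AP-5 was higher in each siPiezo1 library, and 6.24% of all genes tested did not overlap in this direction. Its log2 fold change was 0.19 ± 0.07 (SE; edgeR, Benjamini-Hochberg adjusted p = 0.978), and 0.19 ± 0.06 without siNC 2 (SE; edgeR, adjusted p = 0.182). Spg11, named as the other partner of AP-5, had 78.6, 76.7 and 79.5 CPM in siPiezo1, against 85.1, 70.2 and 88.3 CPM in siNC, and the groups overlapped. Its log2 fold change was -0.05 ± 0.10 (SE), and -0.15 ± 0.06 (SE) without siNC 2. Stk16, the remaining kinase of the AAK1 family, had 19.0, 20.7 and 14.4 CPM in siPiezo1, against 22.2, 23.5 and 22.4 CPM in siNC. Each siPiezo1 library lay below each siNC library, and 5.65% of all genes tested did not overlap in this direction. The log2 fold change of Stk16 was -0.33 ± 0.15 (SE), and -0.31 ± 0.16 (SE) without siNC 2. The list of these genes held 5: Zfyve26, Spg11, Stk16 and the subunit genes Ap2s1 and Ap5s1. Its median was -0.05, and 0.02 without siNC 2.

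The other adaptor complexes had median log2 fold changes of 0.00 for AP-1 (8 genes tested), -0.02 for AP-3 (6 genes) and 0.01 for AP-4 (4 genes). Without siNC 2 these medians were 0.03 for AP-1, -0.09 for AP-3 and -0.10 for AP-4. Ap1b1 and Ap1g2 had log2 fold changes of -0.23 ± 0.18 and 0.18 ± 0.17, Ap3m1 and Ap3b1 of -0.24 ± 0.13 and 0.09 ± 0.08, and Ap4s1 and Ap4b1 of -0.37 ± 0.19 and 0.08 ± 0.28 (SE). Without siNC 2, Ap1b1 and Ap1g2 had -0.37 ± 0.15 and 0.03 ± 0.11, Ap3m1 and Ap3b1 -0.10 ± 0.08 and 0.04 ± 0.05, and Ap4s1 and Ap4b1 -0.31 ± 0.21 and 0.48 ± 0.14 (SE). Ap4b1 was highest in siNC 2. Clathrin itself was abundant: Cltc, the heavy chain, averaged 925 ± 20.3 CPM in siPiezo1 and 1035 ± 89.8 CPM in siNC, and Clta, a light chain, 234 ± 17.9 CPM in siPiezo1 and 212 ± 9.59 CPM in siNC (SD, n = 3 each). The log2 fold changes of Cltc and Clta were -0.16 ± 0.09 and 0.14 ± 0.09 (SE), and -0.24 ± 0.05 and 0.10 ± 0.07 (SE) without siNC 2. The list of clathrin chains and GGA adaptors had a median of -0.01 (6 genes) and that of scission and uncoating -0.04 (14 genes), or -0.03 and -0.06 without siNC 2. In the scission list Sh3gl1, an endophilin that bends membranes, had -0.25 ± 0.09 and Ocrl, a PIP2 phosphatase, -0.16 ± 0.08 (SE), and without siNC 2 they had -0.32 ± 0.07 and -0.14 ± 0.08 (SE).

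Of the 7 cargo receptors, Tfrc, the transferrin receptor and a classic cargo of AP-2, had 248, 253 and 211 CPM in siPiezo1, against 466, 379 and 460 CPM in siNC. Mrc1, the mannose receptor, had 61.4, 99.4 and 60.3 CPM in siPiezo1, against 198, 198 and 196 CPM in siNC. The groups did not overlap for either gene, and siNC 2 lay with the other siNC libraries, unlike for Aak1. The log2 fold change of Tfrc was -0.87 ± 0.12 (SE), and -0.97 ± 0.08 (SE) without siNC 2, and that of Mrc1 was -1.42 ± 0.20 (SE), and -1.42 ± 0.27 (SE) without siNC 2. By edgeR the Benjamini-Hochberg adjusted p of Tfrc was 0.296 with all libraries and 0.00338 without siNC 2, and that of Mrc1 0.338 and 0.141. The median of the list was 0.01, with 5 genes above 0 and 2 below, and the other members lay between 0.00 and 0.15 on the log2 scale. Without siNC 2 the median was -0.11, with 2 genes above 0 and 5 below, and Lrp1 (-0.09), Igf2r (-0.11) and Csf1r (-0.11), which were lowest in siNC 2, were then below 0.

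**Figure D5:**
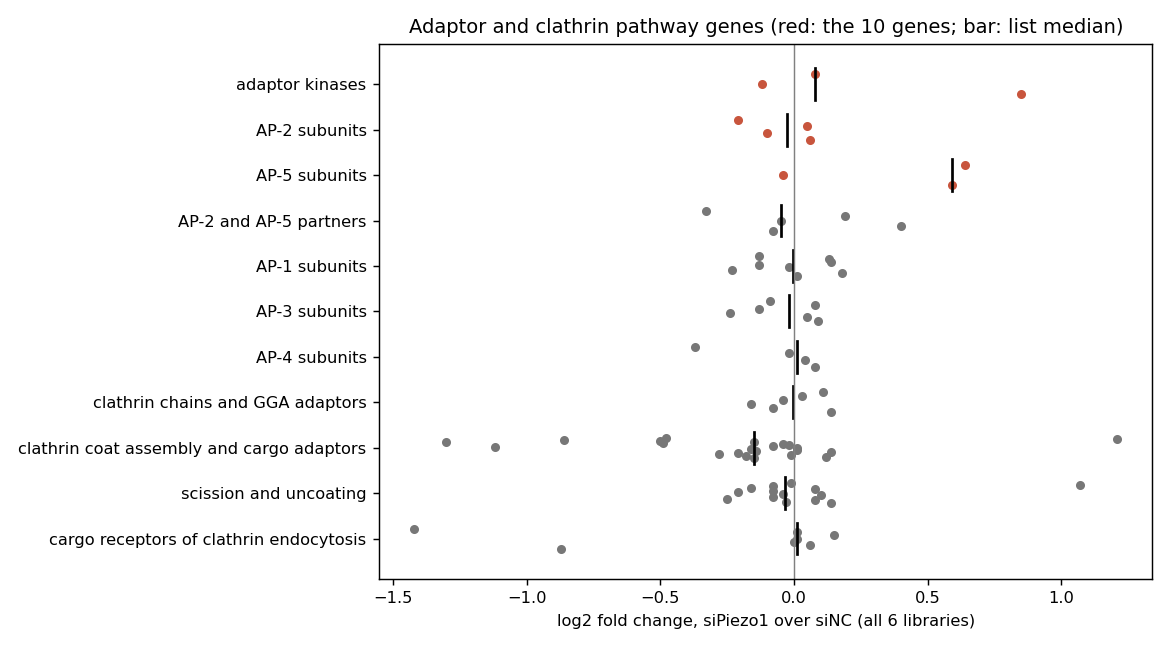
Log2 fold change, siPiezo1 over siNC with all 6 libraries (x axis), of each tested gene of the adaptor, clathrin and cargo lists (y axis), with the list median as a bar and the 10 genes in red. Most points lie near 0; Dab2 (-1.12) and Mrc1 (-1.42) are among the lowest, and the points above 1 are genes under 1 CPM.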

How the data were processed

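Poly(A) RNA of 6 libraries was sequenced as paired-end reads after dUTP strand marking, per the labels' protocols. Per the submitters' processing notes, cutadapt 1.9, HISAT2 2.0.4, StringTie 1.3.4d, DESeq2 and edgeR were used with build GRCm39; which tool did what, the annotation and the use of strand were not stated there. The deposited table holds estimated counts, already whole, so no rounding was needed. Given the steps of the low values described above, they are not counts of fragments, and intervals of counting error are not given. Samples were grouped by title; 0 columns were unmapped, and 0 library pairs were identical. The labels do not tie replicates to separate cultures or animals, and the p-values then cover only the spread between these libraries, possibly technical.

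Symbols came from GENCODE M21 (55141 of 55401 identifiers matched), as did merged exon lengths, overlaps and shared 100-base stretches. Its build is not that of the processing notes, so the only coordinates given are those of the RefSeq promoter windows. Genes were filtered with filterByExpr and tested with edgeR 4.0.16 (R 4.3.3) by the quasi-likelihood test with robust dispersions, TMM scaling (factors 0.988 to 1.028) and a design holding the group alone. Adjustment was by Benjamini-Hochberg over 15959 genes, at a threshold of 0.05. SE is the absolute log2 fold change over the root of F. The test was checked on simulated counts.

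The genes and lists were chosen with earlier results of these data known. The text names the 10 genes, Piezo1, the 2 genes with the smallest p of each other list and any past the threshold, and the 3 genes nearest in profile to Aak1 and to Ap5b1, predicted gene models left out. Ap2s1, Ap5s1 and Spg11 were added as parts of the complexes, and the markers, Itsn1, Itsn2, Lrp1, Igf2r and Csf1r after their values were seen. One list member is not reported here. Tried as alternatives were scaling by library totals or by DESeq2's factors, no filter (at least 1 count), a minimum of 50 counts in 3 libraries, the tests of DESeq2 1.42.0 and of limma-voom (limma 3.58.1), a replicate block, counts divided by 4, and each library left out in turn with the same genes tested.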

Additional observations from a re-analysis of the deposited data

How the results depend on the processing

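The count of all genes called lower in edgeR's quasi-likelihood test was 1 with all 6 libraries and 0 with library totals alone, and no gene was called higher in either. DESeq2 called 46 genes higher and 42 lower. Of the 8 genes other than Aak1 and Ap5b1, DESeq2 called 1 (Ap5m1) and every other setting 0. With each library left out in turn, edgeR called 0 to 106 genes higher and 0 to 72 lower, the highest counts being those without siNC 2; over the same settings the log2 fold change ranged from 0.46 to 2.01 for Aak1, from 0.30 to 1.27 for Ap5b1 and from 0.55 to 0.73 for Ap5m1. The sign turned with a library left out for Ap5z1 (-0.15 to 0.10) and Ap4b1 (-0.10 to 0.48). The cause was not tested. With the replicate number as a block 0 genes were called lower; same-numbered libraries did not deviate together (correlations of 0.03, -0.06 and -0.09), and the libraries did not correlate best with their own number. No scaling moved the median of all genes by more than 0.02 on the log2 scale. The median of the AP-1 genes was 0.00 in the edgeR test, 0.13 with limma-voom and 0.15 with the replicate block. The lowest values of Aak1 and Ap5m1 stood for about 335 and 361 fragments.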
